A study of Apis mellifera with 10 samples.

Results

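The genes described here are the C-minus odorant binding protein genes of the honey bee (Apis mellifera), which stand side by side on linkage group 15. They were chosen by symbol, Obp13 to Obp21, in the RefSeq gene table of the assembly Amel_HAv3.1, and matched to the count rows by chromosome, start and end. Of the 9 symbols, 8 were matched among 12332 bee genes, and Obp20 was not analysed here. RNA was measured in antennae of adult bees dissected no later than 24 hours after emergence. The orco_KO group held 5 libraries from bees injected as embryos with a CRISPR ribonucleoprotein against orco, the gene of the coreceptor that odorant receptors need to form a channel. The control group held 5 libraries from bees injected as embryos with buffer alone. All bees of both groups were thus injected and were reared in the laboratory. The labels do not say how many bees went into a library, and a p-value here reflects library-to-library spread, part of which may be technical.

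Odorant binding proteins are small soluble proteins that support cells of the antennal sensilla secrete into the lymph around the dendrites of the olfactory neurons. They are thought to carry hydrophobic odorants and pheromones through that lymph to the receptors. The classic proteins of the family hold their fold together with a set of conserved cysteines joined by disulfide bridges, and the C-minus proteins lack a pair of these cysteines. In insects some members of the family are also made outside the olfactory organs, so the family is not limited to smell. The protein sequences were not used here, so the C-minus name rests on the symbols and not on a count of cysteines.

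The 8 genes filled 44.0 kb of linkage group 15, from position 1917639 to position 1961654, and all were transcribed from the forward strand in the order of their numbers. Gaps between neighbours ranged from 984 bp, between Obp15 and Obp16, to 6179 bp, between Obp14 and Obp15. The genes were compact, 1684 to 2301 bp from start to end, apart from Obp19, which spanned 7297 bp. None of the 8 overlapped another annotated gene on either strand, so their counts are not affected by overlapping features. The classic odorant binding protein gene Obp9 had a start position 4363356 bp beyond the end of the cluster and was not counted with it.

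The cluster held both well-expressed genes and genes with next to no reads. Levels in CPM (counts per 1e6 assigned reads, scaled between libraries by TMM) were divided by the length of the gene span to compare levels between genes. On that scale Obp18 had the highest mean, with 131 ± 38.3 CPM per kb in orco_KO and 95.4 ± 27.0 CPM per kb in control (SD, n = 5 each). OBP18 and OBP16 are known from proteome studies of bee antennae as proteins whose amounts go with hygienic behaviour. Obp21 came next, with 103 ± 80.5 CPM per kb in orco_KO and 53.8 ± 51.7 CPM per kb in control. Obp16 and Obp15 had nearly the same mean over all 10 libraries, 49.3 and 46.5 CPM per kb. Obp17 averaged 21.4 CPM per kb and Obp19 3.75 CPM per kb. As counts cover the whole span including introns, the value of Obp19 is diluted by its long span.

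**Figure D1:**
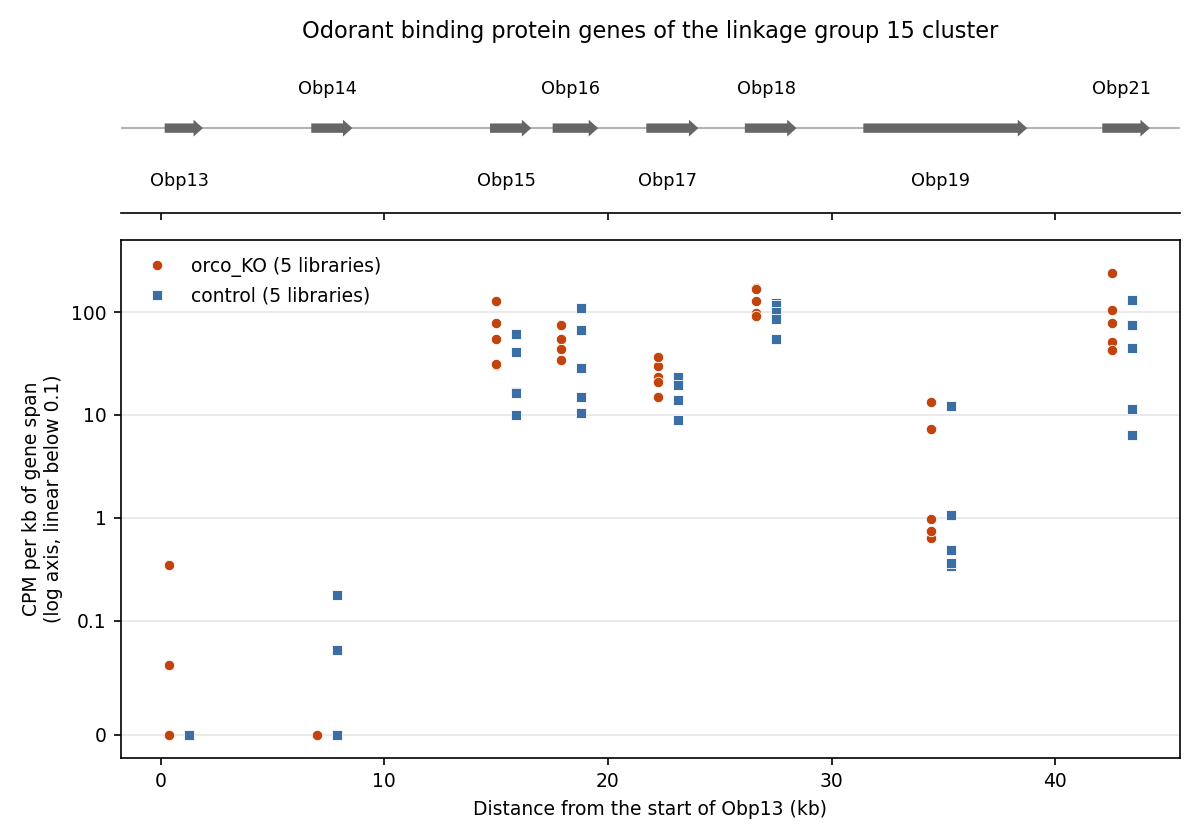
Upper panel, the 8 genes drawn to scale as arrows by distance from the start of Obp13 (kb), all in 1 orientation; lower panel, level of each gene in each library (CPM per kb of gene span, log axis that is linear below 0.1), orco_KO as circles left of control as squares. Obp13 and Obp14 lie at or near 0 in both groups, Obp15 to Obp18 and Obp21 lie mostly between 10 and 200 CPM per kb, and Obp19 splits into high and low libraries in each group.

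The order of the levels was not the same in every library. Obp18 was the highest of the 8 genes per kb in 7 libraries, 4 orco_KO and 3 control, and Obp21 was the highest in the other 3. Obp18 exceeded Obp21 in 7 of 10 libraries, Obp21 exceeded Obp16 in 5 of 10, and Obp16 exceeded Obp15 in 6 of 10. The order of these neighbours was therefore within the spread between libraries. Obp15 exceeded Obp17 in 9 of 10 libraries. Per kb, Obp17 exceeded Obp19 in all 10, and Obp19 exceeded Obp13 and Obp14 in all 10. Before division by span, Obp19 exceeded Obp17 in orco_KO library 3 (96.9 against 53.4 CPM) and orco_KO library 9 (53.7 against 47.5 CPM). The same held in control library 4 (89.1 against 53.6 CPM). In all other libraries Obp17 was higher on both scales.

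Obp13 and Obp14 were close to absent. Obp13 had 5 reads in orco_KO library 3, 2 reads in orco_KO library 9 and no read in the other 3 orco_KO libraries or in any control library. Obp14 was without reads in orco_KO. It had 5 reads in control library 4, 1 read in control library 3 and none in the other 3 controls. OBP14 is the member of the group whose crystal structure, with bound odorants, has been studied in detail. A library without a read leaves room for a level of up to 0.155 to 0.431 CPM in orco_KO and 0.101 to 0.403 CPM in control, depending on the library and taking 3 reads as the limit on the same scale, which covers counting error only. Neither gene passed the filter on low counts, and no fold change is given for them. The other 6 genes had at least 45 reads in every library, so none of them entered the test through 1 group alone.

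The comparison of orco_KO with control asks whether these carrier genes changed in antennae with the coreceptor gene targeted. None of the 6 tested genes passed the test (quasi-likelihood test of edgeR at an adjusted p of 0.05, Benjamini-Hochberg over 9222 genes), so 0 of 6 were called higher or lower. Of all tested genes 12.5% passed, 4.57% as higher and 7.98% as lower in orco_KO. All 6 estimates were above 0, as were 44.8% of all tested genes. The median log2 fold change of the 6 was 0.59, with a range of 0.20 to 1.15, beside a median of -0.06 over all tested genes. It was 0.37 without control library 5, 0.38 without orco_KO library 12, 0.36 without control libraries 6 and 7, and 0.98 by limma-voom. Only Obp15 had an unadjusted p below 0.05, beside 11.7% of all tested genes with such a p and a higher level in orco_KO, and DESeq2 gave 2 such genes, Obp15 and Obp18, beside 13.3% of all genes. DESeq2 also called 0 of the 6, with adjusted p-values of 0.193 for Obp15 and 0.195 for Obp18, where it called 14.9% of all genes, 7.03% as higher and 7.86% as lower. In no member were the groups free of overlap, beside 11.2% of tested genes in which they were. When control library 4 was left out, Obp15 and Obp19 passed as higher, beside 4.04% of genes higher in that fit. Without control libraries 6 and 7 none of the 6 passed by edgeR, beside 9.89% of genes that did, 2.18% as higher and 7.71% as lower.

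The targeted gene was checked in the same libraries. Or2, the orco gene, was at 14.2 to 36.1 CPM in orco_KO and 306 to 492 CPM in control. The summed level of the 7 neuron markers was 4340 to 6429 CPM in orco_KO and 7640 to 18377 CPM in control, with 6 of the 7 lower in orco_KO by the same test. In these bulk samples fewer cells of a type and less RNA per cell cannot be told apart. CPM values are shares of a library, and whether the smaller neuronal share bears on the estimates of the cluster was not tested. Obp1 and Obp2, the markers fixed for antennal support cells, summed to 10186 to 17892 CPM in orco_KO and 5976 to 27740 CPM in control, and were well above 0 in every library. The head gland genes Mrjp1, Mrjp2 and Mrjp3 together did not exceed 0.77 CPM in any library. Total assigned counts were 8577416 to 18308425 in orco_KO and 9497211 to 23453690 in control. The 4 matched muscle markers summed to 2484 to 6541 CPM in orco_KO and 1896 to 3860 CPM in control, with 1 called higher and 1 called lower. The 18 cuticle genes summed to 926 to 3231 CPM in orco_KO and 409 to 1417 CPM in control. Of these 13 were tested, with 2 called higher and 1 called lower, beside 12.5% of all tested genes called in either direction. The glial marker Eaat-2 was at 0.232 to 1.599 CPM in orco_KO and 6.24 to 9.14 CPM in control. Control libraries 6 and 7 lay below all 8 other libraries for 4 members and for the classic genes Obp1, Obp2, Obp5, Obp6 and Obp11, and values without them are given where a result rests on them.

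Obp15 had the largest estimate. Its levels were 141, 55.5, 98.3, 56.4 and 231 CPM in orco_KO libraries 3, 5, 9, 11 and 12, against 73.5, 112, 30.5, 18.1 and 29.6 CPM in control libraries 3, 4, 5, 6 and 7. The 2 highest values were from orco_KO and the 3 lowest from control, with overlap between 55.5 and 112 CPM. The log2 fold change was 1.15 (SE 0.494, 95% interval 0.09 to 2.21), an estimate of 2.22-fold, with an adjusted p of 0.157 by edgeR. Without control library 4, the highest control, it was 1.63 (adjusted p = 0.0421, edgeR). Without control libraries 6 and 7 it was 0.68.

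Obp16 showed next to no difference in its mean, with a wider spread in control. It was at 111, 109, 69.1, 87.7 and 151 CPM in orco_KO libraries 3, 5, 9, 11 and 12, against 219, 133, 57.6, 21.0 and 30.2 CPM in control libraries 3, 4, 5, 6 and 7. All orco_KO values lay inside the range of the controls. The SD was 30.6 CPM in orco_KO and 83.6 CPM in control. The log2 fold change was 0.20 (95% interval -0.89 to 1.28, edgeR adjusted p = 0.851). The estimate was -0.38 when control libraries 6 and 7 were left out.

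Obp17 and Obp18 varied least between libraries. Obp17 was at 53.4, 69.3, 47.5, 34.1 and 85.0 CPM in orco_KO libraries 3, 5, 9, 11 and 12, against 51.7, 53.6, 20.6, 45.1 and 32.1 CPM in control libraries 3, 4, 5, 6 and 7. Obp18 was at 289, 393, 221, 210 and 386 CPM in orco_KO in the same order, against 277, 265, 124, 228 and 196 CPM in control. For both genes orco_KO libraries 5 and 12 lay above every control, and control library 5 lay below every other library. The log2 fold changes were 0.51 for Obp17 (95% interval -0.09 to 1.11, edgeR adjusted p = 0.266) and 0.46 for Obp18 (95% interval -0.06 to 0.98, edgeR adjusted p = 0.246). The upper bounds correspond to 2.16-fold and 1.97-fold. Highest and lowest library differed 4.12-fold for Obp17 and 3.19-fold for Obp18.

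Obp21 varied far more. It was at 219, 107, 164, 89.2 and 505 CPM in orco_KO libraries 3, 5, 9, 11 and 12, against 278, 93.9, 156, 13.4 and 24.2 CPM in control libraries 3, 4, 5, 6 and 7. Control libraries 6 and 7 lay far below the rest, orco_KO library 12 lay highest, and the other 7 libraries of both groups were mixed. Highest and lowest library differed 37.6-fold. The log2 fold change of 0.95 had a 95% interval of -0.51 to 2.41 (edgeR adjusted p = 0.419). It was 0.30 without control libraries 6 and 7, 0.38 without orco_KO library 12 and 1.61 without control library 3.

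**Figure D2:**
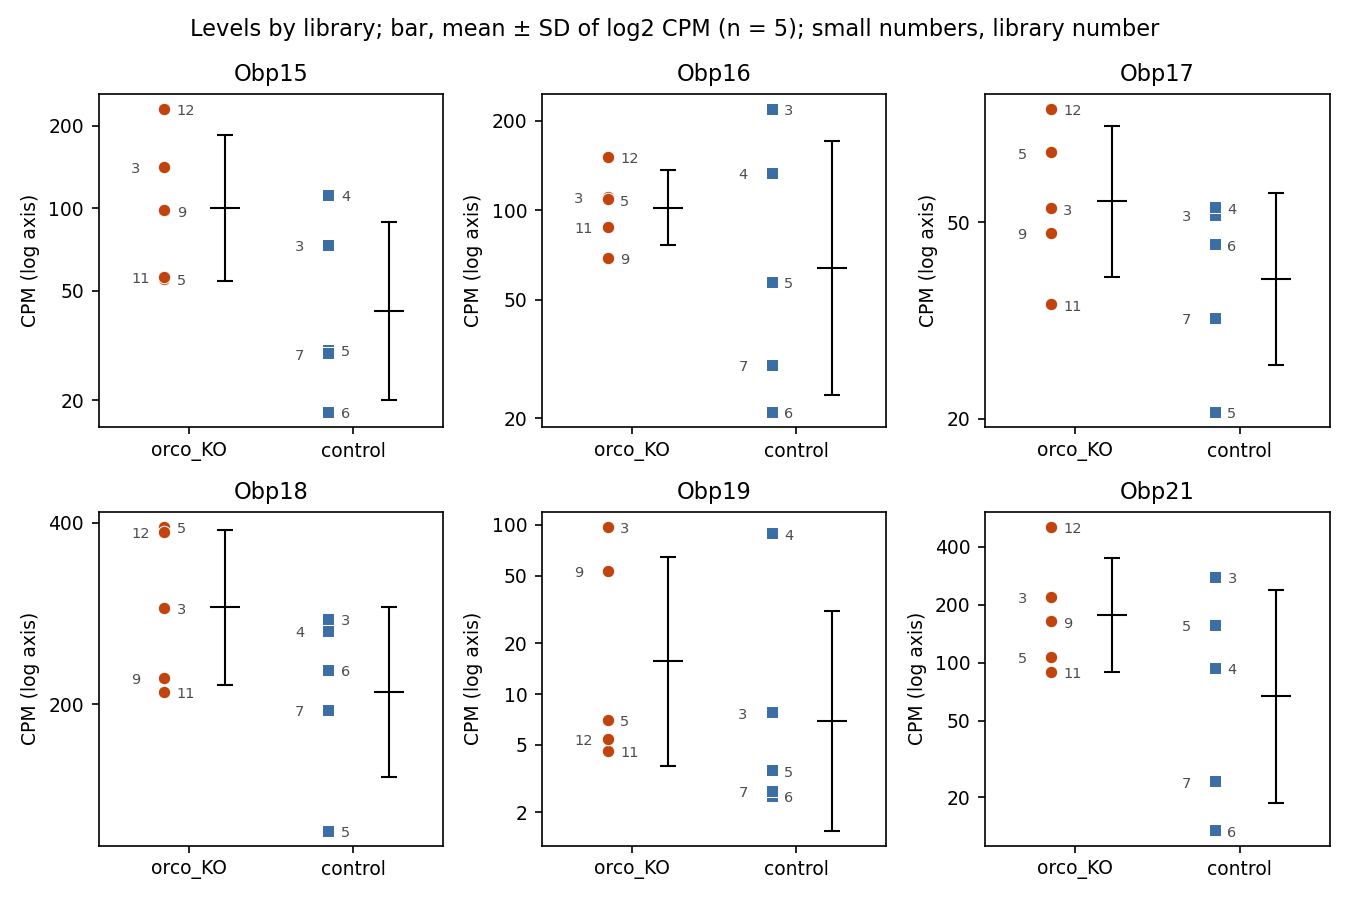
Level of the 6 tested genes in each library (CPM, log axis), orco_KO as circles left of control as squares, with library numbers beside the points and a bar for the mean ± SD of log2 CPM (n = 5 per group). The groups overlap in every gene, control libraries 6 and 7 are the lowest for Obp15, Obp16, Obp19 and Obp21, and Obp19 is high in 3 libraries.

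Obp19 was either low or high. It was at 96.9 CPM in orco_KO library 3, 53.7 CPM in orco_KO library 9 and 89.1 CPM in control library 4. In the other 7 libraries it was at 7.04, 5.46 and 4.60 CPM (orco_KO libraries 5, 12 and 11) and at 7.79, 3.54, 2.66 and 2.50 CPM (control libraries 3, 5, 7 and 6). The lowest of the 3 high values was 6.89 times the highest of the 7 others, and both groups held high and low libraries. In reads the 3 high libraries had 837, 1042 and 1383, and no other library had more than 79. The log2 fold change of 0.67 had a 95% interval of -1.61 to 2.95 (edgeR adjusted p = 0.742) and rested on single libraries. Without control library 4 it was 3.102 (adjusted p = 0.0416, edgeR), and without orco_KO library 3 it was -0.23.

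The few reads of Obp13 and Obp14 fell mostly in the same 3 libraries. Of the 7 Obp13 reads 5 came from orco_KO library 3 and 2 from orco_KO library 9, and of the 6 Obp14 reads 5 came from control library 4. The storage protein gene Hex110, a marker of fat body and hemolymph, was also highest there within its group. Hex110 was at 15.4 CPM in orco_KO library 3, 3.71 CPM in orco_KO library 9 and 0.61 to 1.44 CPM in the other orco_KO libraries, against 1.48 CPM in control library 4 and 0.23 to 1.02 CPM in the other controls. Of the 5 genes of that marker list Vg, Hex110, Hex70a and Hex70c were matched. Hex70a had 4, 5, 11, 4 and 0 reads in orco_KO libraries 3, 5, 9, 11 and 12, against 37 reads in control library 4, 6 reads in control library 7 and none in the other controls. Hex70c had 8 reads in orco_KO library 9, against 1 read in control library 4 and none in any other library. Hex110 and Hex70a thus had their highest control value in control library 4, while the 1 read of Hex70c there is below the limit of 3 reads. Among orco_KO libraries Hex70a was highest in library 5 once scaled for depth, at 0.719 CPM, with 0.567 CPM in library 9. Vg, the vitellogenin gene, made up most of the summed level and had its highest values in other libraries, orco_KO library 5 (80.1 CPM) and control library 3 (98.0 CPM). The sum of the 4 genes was 20.6 to 82.2 CPM in orco_KO and 5.11 to 98.2 CPM in control. Hex110 was not alone in going with Obp19 over the 10 libraries with group means subtracted. Apid1, which is not on that list, had r = 0.85 and rho = 0.84 with Obp19, against 0.81 and 0.90 for Hex110. Obp19 was either low or high, so neither value is read as a relation. Whether RNA of fat body or hemolymph had a part in the Obp19 reads was not tested.

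**Figure D3:**
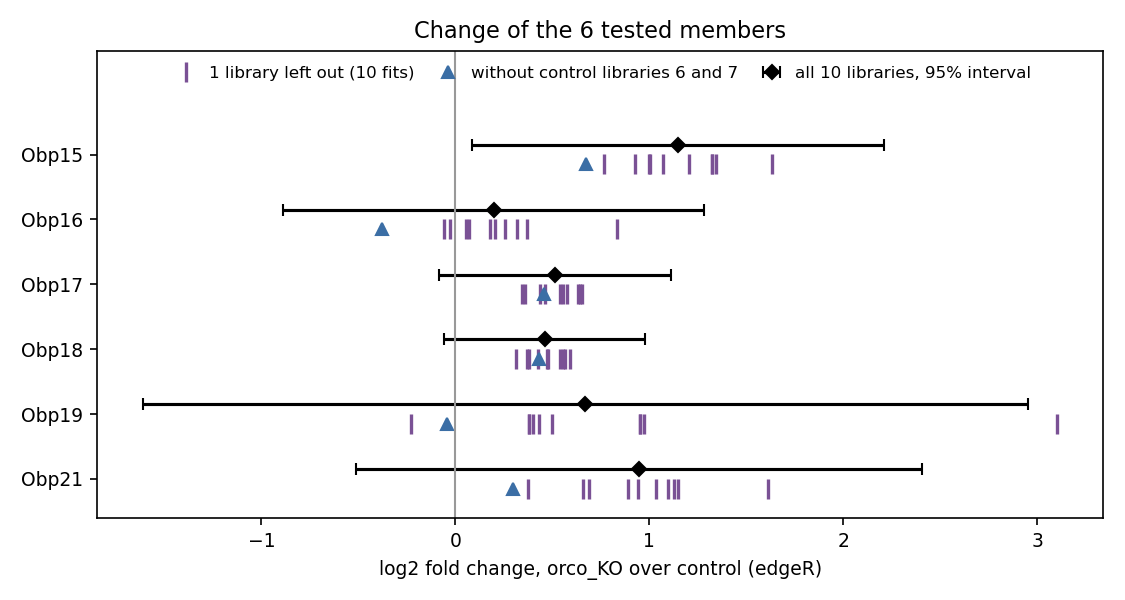
Log2 fold change of the 6 tested genes, orco_KO over control, from edgeR on all 10 libraries with its 95% interval (diamonds), with 1 library left out at a time (ticks, 10 fits per gene) and without control libraries 6 and 7 (triangles). The ticks of Obp17 and Obp18 stay between 0.31 and 0.65, while those of Obp19 reach from -0.23 to 3.102.

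The reads on the whole cluster were a small part of each library. They made up 0.0811% ± 0.0343 of assigned counts in orco_KO and 0.0526% ± 0.0193 in control (SD, n = 5 each), with ranges of 0.0521% to 0.138% and 0.0357% to 0.0761% that overlap. The ratio of the means was 1.54. It was 1.27 without orco_KO library 12, which held 0.138%, and 1.33 without control libraries 6 and 7. Reads on the 11 matched genes among Obp1 to Obp12 made up 1.63% ± 0.274 of assigned counts in orco_KO and 1.44% ± 0.666 in control. The cluster thus took 4.60% ± 1.13 of all odorant binding protein reads in orco_KO and 3.73% ± 0.948 in control. Among the classic genes 9 were tested, 1 was higher (Obp12, 24.1 CPM in orco_KO and 11.2 CPM in control, edgeR adjusted p = 0.0490) and the 9 had a median log2 fold change of -0.03. Obp12 was at 10.9 to 49.9 CPM in orco_KO, highest in library 9, and at 7.09 to 14.9 CPM in control, so the groups overlapped. Among 5 chemosensory protein genes, another family of small carriers, none passed with edgeR, 1 had an unadjusted p below 0.05, and the median was 0.31. Of all tested genes 12.5% passed with edgeR, 4.57% as higher.

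Within the cluster the make-up of the reads differed widely between libraries. Obp18 gave 28.3% to 53.1% of the cluster's reads in orco_KO and 30.5% to 69.5% in control, with the highest shares in control libraries 6 (69.5%) and 7 (62.3%). Obp21 gave 14.5% to 37.1% in orco_KO and 4.09% to 39.9% in control, with the lowest shares in control libraries 6 (4.09%) and 7 (7.68%). Obp19 gave 10.6% in orco_KO library 3, 8.22% in orco_KO library 9 and 11.9% in control library 4, and less than 1% elsewhere.

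**Figure D4:**
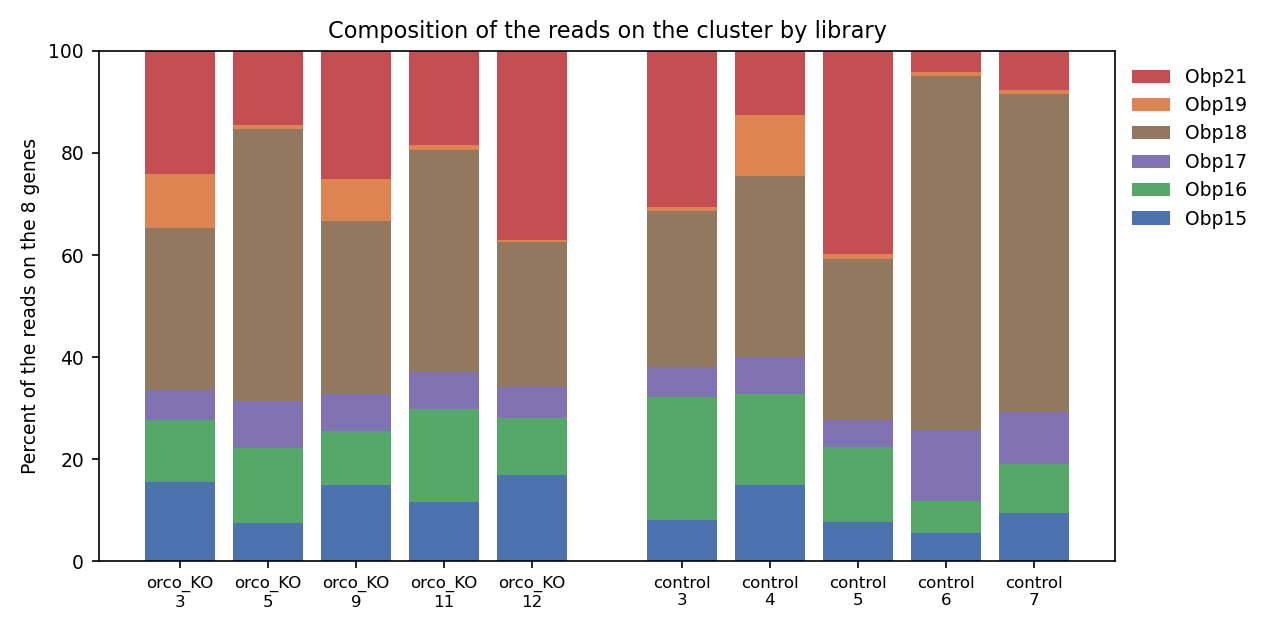
Share of the cluster's reads (percent, stacked bars) that each of the 6 tested genes took in each library, orco_KO libraries left and control libraries right; Obp13 and Obp14 are too few to show. Obp18 takes 69.5% and 62.3% in control libraries 6 and 7, and Obp19 is visible mainly in orco_KO libraries 3 and 9 and control library 4.

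Obp17 and Obp18, neighbours 2105 bp apart, kept nearly the same ratio in all 10 libraries. The level of Obp17 divided by that of Obp18 was 0.163 to 0.220 in orco_KO and 0.164 to 0.202 in control, both in CPM. The same ratio for Obp21 over Obp18 ran between 0.272 and 1.31 in orco_KO and between 0.0588 and 1.27 in control. Across libraries, with each group's mean subtracted from log2 CPM, Obp17 and Obp18 had a Pearson r of 0.96 and a Spearman rho of 0.90 (n = 10, exact permutation test over all orders within the groups, two-sided p = 0.000278 and p = 0.000903, adjusted over 15 pairs 0.00417 and 0.0135). With the 2 libraries farthest from the median of Obp17 left out, r was 0.91. Without control libraries 6 and 7, r was 0.97 over 8 libraries, with an adjusted exact p of 0.0833 in that smaller set.

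No other pair of the 15 passed. Obp16 and Obp21 had r = 0.84 and rho = 0.85 (n = 10, exact permutation p = 0.0215 and p = 0.0178, adjusted 0.108 and 0.0794), Obp15 and Obp16 had r = 0.77 and rho = 0.78 (adjusted exact p = 0.108 and p = 0.0794), and Obp15 and Obp21 had r = 0.76 and rho = 0.81 (adjusted exact p = 0.113 and p = 0.0794). These values rest partly on control libraries 6 and 7, where all of Obp15, Obp16 and Obp21 were below every other library while Obp17 and Obp18 were not. Without both, r was 0.47 for Obp16 and Obp21, 0.64 for Obp15 and Obp16 and 0.59 for Obp15 and Obp21. Obp16 with its neighbour Obp17 moved the other way, with r = 0.43 over all libraries and r = 0.84 without control libraries 6 and 7, so which of Obp17 and Obp21 went more closely with Obp16 depended on that pair of controls. As Obp19 falls into separate high and low libraries, r is not read as a relation for its pairs.

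**Figure D5:**
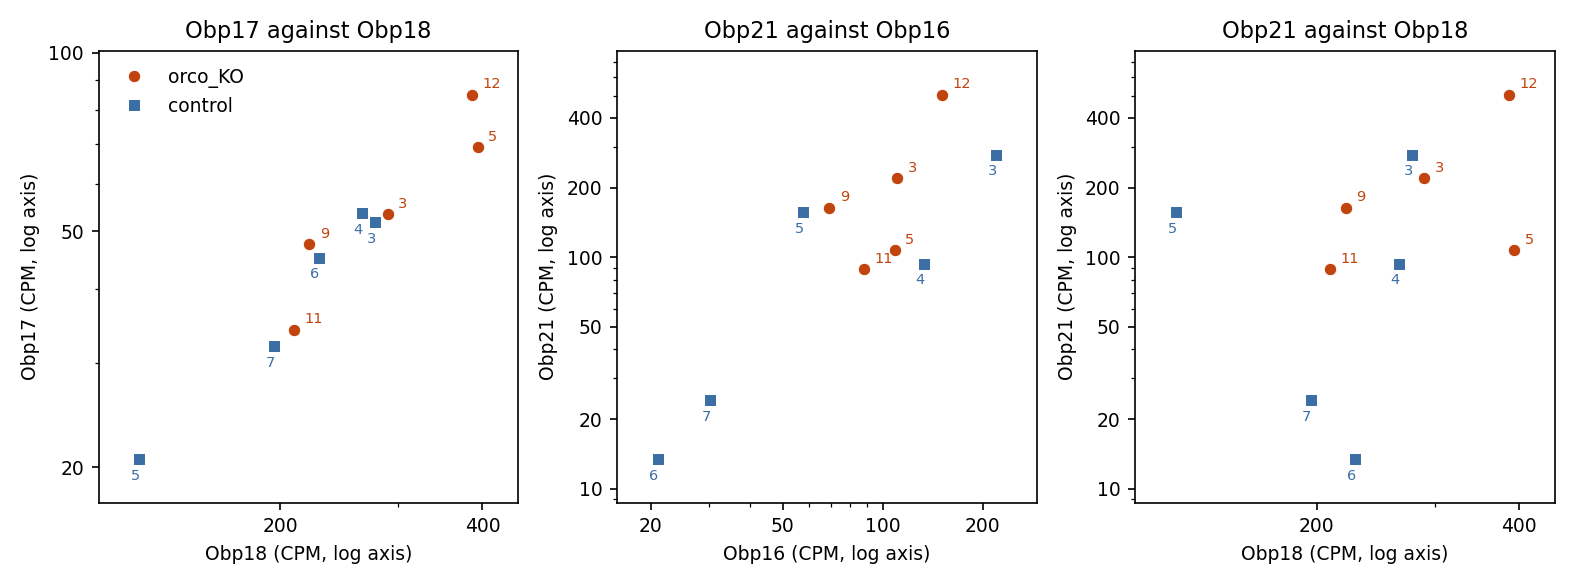
Level of Obp17 against Obp18 (left), Obp21 against Obp16 (middle) and Obp21 against Obp18 (right) in the 10 libraries (CPM, log axes), orco_KO as circles and control as squares with library numbers. Obp17 follows Obp18 closely in both groups, while the low end of the middle plot is held by control libraries 6 and 7.

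Outside the cluster and over all 10 libraries, the named genes whose levels went most closely with Obp21 and Obp18, the highest members per kb, were different ones. Members of the cluster were left out of this ranking, so Obp17 and Obp18 (r = 0.96 with each other) could not appear in it. Among 298 genes with a name and an average log2 CPM of at least 1, those most like Obp21 were GstD1, a glutathione S-transferase gene (r = 0.97), and the classic genes Obp5 (r = 0.95) and Obp1 (r = 0.91), then the cytochrome P450 gene CYP6AQ1 (r = 0.90) and Obp11 (r = 0.90), over 10 libraries with group means subtracted. Without control libraries 6 and 7 the value was 0.94 for GstD1, 0.84 for Obp5, 0.71 for Obp1, 0.79 for CYP6AQ1 and 0.67 for Obp11. Those most like Obp18 were Smb (r = 0.82), the respiratory complex I genes Ndufs5 (r = 0.82) and Ndufs1 (r = 0.79), Sod2, coding for a superoxide dismutase (r = 0.81), and JHBP-1 (r = 0.79). Without control libraries 6 and 7 Ndufs1 had the highest value of these (0.897, against 0.887 for Smb). Obp18 with the classic genes Obp5, Obp1 and Obp11 had r = 0.33, 0.28 and 0.26 over all libraries. Without those controls r was 0.67, 0.69 and 0.81, so the difference from Obp21 in these classic genes rested largely on that pair of controls. As the genes most like Obp21 and Obp18 were picked for their likeness, no p is given. The same measure, with members of the cluster again left out of the ranking, was added for the other members after their values were seen. Obp16 was most like Obp1 (r = 0.96, and 0.89 without control libraries 6 and 7). Obp17 was most like Sod2 over all libraries (r = 0.88, against 0.87 for Ndufs1), but without those controls Ndufs1 had the higher value (0.97, against 0.88 for Sod2). Obp15 was most like the chemosensory protein gene CSP1 over all libraries (r = 0.93, against 0.81 for Hbg3), but without those controls Hbg3 had the higher value (0.92, against 0.90 for CSP1).

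Obp1, Obp5 and Obp11 shared the low values of Obp16 and Obp21 in the pair of controls that stood apart. Obp1, which codes for the antennal protein ASP1, was at 4035 to 5842 CPM in orco_KO, against 1948 and 1907 CPM in control libraries 6 and 7 and 4686 to 9951 CPM in the other controls. Obp11 was at 21.8 to 55.4 CPM in orco_KO, against 9.79 and 8.56 CPM in control libraries 6 and 7 and 58.7 to 117 CPM in the other controls. Obp17 was at 45.1 and 32.1 CPM in these libraries, inside the range of the other controls, 20.6 to 53.6 CPM.

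The genes around the cluster were mostly without a call, as were tested genes in general, of which 12.5% were called, 4.57% as higher and 7.98% as lower. Within 100 kb on either side 34 other genes were annotated and 23 were tested, of which 1 was higher and 1 was lower in orco_KO by edgeR. The higher one, LOC726601, was at 35.3 CPM in orco_KO and 21.6 CPM in control (log2 fold change 0.71, adjusted p = 0.0101) and lay 35451 bp from the cluster. The lower one, LOC726631, was at 1.90 CPM in orco_KO and 4.41 CPM in control (log2 fold change -1.22, adjusted p = 0.0223). The tested genes nearest to the cluster, LOC100577418 (4327 bp away) and LOC726435 (2598 bp away), had log2 fold changes of -0.50 (edgeR adjusted p = 0.262) and 0.13 (edgeR adjusted p = 0.688). LOC100577418 was at 3.82 to 9.08 CPM in orco_KO and 5.91 to 11.7 CPM in control.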

How the data were processed

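For each of the 10 antennal libraries the authors deposited 1 table of raw counts, with no normalization. Groups were taken from the labels. Reads were aligned with STAR 2.7.3a and counted with Subread 2.0.0, per the submitters' processing notes. Per the file headers, featureCounts counted the whole gene span with strand setting 2, and no option for multiply mapped reads was set, so reads shared between similar genes of the cluster are left out and counts are minimum values. The 5 virus features were left out of library sizes. Of 12332 bee genes, 12331 were matched by coordinates to the RefSeq table of Amel_HAv3.1.

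Counts were tested in R 4.3.3 with edgeR 4.0.16 (filterByExpr, TMM, quasi-likelihood test, no covariates, Benjamini-Hochberg over 9222 genes, threshold 0.05). SE is the log2 fold change over the square root of F, and 95% intervals use the fit's degrees of freedom. Alternatives used DESeq2 1.42.0 and limma 3.58.1. Log2 CPM used a prior count of 2. The fit was tested on simulated data with 200 changed genes, where it called 90.6% of 4-fold changes and 51.0% of 2-fold changes. A gene without a call can therefore still differ about 2-fold between the groups. Figures used matplotlib 3.10.9.

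Members, lists and alternatives were chosen with earlier results of these data known. The text names every member, the target, the genes most like the 2 highest members, the 2 nearest tested neighbours and called neighbours. Hex110, Hex70a, Hex70c, Vg, Obp12, Obp1, Obp11 and the likeness of other members were added after their values were seen. No sequence of these genes was used here.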

Additional observations from a re-analysis of the deposited data

Results flagged for a closer look

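In 3 of 22 groups of 5 libraries that were examined, 1 library lay far from the rest of its group. A chance rate of about 1 in 20 cannot be set against this count. The genes share libraries, Hex110 was added after its values were seen, and Obp13 had only a few reads. Obp19 was at 89.1 CPM in control library 4, where the next highest control was at 7.79 CPM. Obp13 was at 0.579 CPM in orco_KO library 3, which is 5 reads, where the next highest was at 0.103 CPM. Hex110 was at 15.4 CPM in orco_KO library 3, where the next highest was at 3.71 CPM.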

How the results depend on the processing

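Of the 6 tested members, Obp15, Obp17 and Obp18 kept a positive estimate under all 17 alternatives, against 13 for Obp16, 15 for Obp19 and 16 for Obp21. With 1 library left out at a time, 0 to 2 members were called higher and 0 lower, and over all genes 250 to 684 were called higher, against 421 with all libraries; 684 was without control library 3, 250 without orco_KO library 3 and also without control library 6, and 276 without control library 7. In the same fits the log2 fold change ranged from -0.0577 to 0.83 for Obp16 and from -0.23 to 3.102 for Obp19. DESeq2 called 755 genes higher. Without control libraries 6 and 7, 200 genes were called higher, Obp16 was at -0.38 and Obp19 at -0.0413, 0 pairs of members passed the covariation test, against 1 with all libraries, and r of Obp19 with Obp21 was -0.15, against 0.29. Without the 2 libraries farthest from the median, r was -0.11 for Obp17 with Obp19, against 0.23, and -0.23 for Obp18 with Obp19, against 0.13. Obp19 falls into high and low libraries, so these r are no relations. The causes of these shifts were not tested.

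Numbers 3 and 5 occur in both groups, but the labels do not pair them, and deviations of same-numbered libraries correlated at 0.0793 and 0.140 over 9222 genes. With the replicate block, both the comparison and the residual spread of the fit rest on those 4 libraries. That fit by edgeR called 4 members higher, Obp15, Obp17, Obp18 and Obp19, and 375 of the 9222 tested genes higher. Obp16 was at -0.0407 and Obp21 at -0.44. With so little left to estimate the spread, these calls are not read as a result. Levels per kb of coding length were not run. Depth limits Obp13 and Obp14.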
